A study of Mus musculus with 6 samples.

Results

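Integrins are heterodimeric receptors of the cell surface, each made of an α and a β chain, that hold cells to the proteins of the extracellular matrix. In an epithelium the matrix next to the cells is the basement membrane, a sheet of laminin heterotrimers (one α, one β and one γ chain) and a network of type IV collagen. Intestinal epithelial cells make several laminin chains themselves, while fibrillar collagens come mostly from the mesenchyme. The genes described here were taken by symbol from the table of gene counts: every integrin α or β gene (symbols that begin with Itga or Itgb and a digit, with Itgav, Itgae, Itgal, Itgam and Itgax), every laminin chain gene and every collagen chain gene. The rule found 48 of the 18448 genes in the table: 19 integrin subunits, 7 laminin chains, 19 collagen chains and 3 genes that share only the symbol stem (Itgb1bp1, Itgb1bp2 and Itgb3bp), which encode proteins that are not integrins. Of the 48, 35 passed the filter on low counts and were tested. The other 13 had 10 to 58 counts in total over all libraries and never exceeded 0.585 CPM (counts scaled to a common library size): Itga9, Itgae, Itgal, Col1a1, Col2a1, Col4a5, Col9a2, Col9a3, Col15a1, Col16a1, Col25a1, Col26a1 and Col27a1.

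RNA came from epithelial organoids grown from the jejunum of C57BL/6 mice. All carried Villin-CreERT2 and Hnf4aflox/flox. In the 4OHT group (3 libraries) 0.5 µM 4-hydroxytamoxifen was given for 24 hours to activate the Cre recombinase, which the villin promoter restricts to epithelial cells, and so to delete Hnf4a, a nuclear receptor gene of the intestinal epithelium. The DMSO group (3 libraries) carried the same alleles and received vehicle. All cultures in both groups were then split, received 200 ng/mL recombinant Wnt3A and were harvested at day 2. The labels used here do not name the gel the organoids were embedded in, nor say whether replicates came from separate mice or lines, so every p-value below is set against a spread that could be no more than technical. Exposure to the drug and loss of Hnf4a go together in this design and cannot be told apart.

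Library totals ran from 31537100 to 40276242 counts, and the 48 genes held 0.241% to 0.299% of the counts of the 4OHT libraries and 0.16% to 0.248% of those of the DMSO libraries. Hnf4a was at 436, 424 and 482 CPM in the 4OHT libraries, against 840, 846 and 1021 CPM in the DMSO libraries (edgeR adjusted p = 0.0124, and 0.00543 to 0.0951 with single libraries left out). Which exons the floxed allele removes is not given in the sources used here. Markers fitted the epithelial label. Epcam, an epithelial adhesion molecule, was at 893 to 998 CPM in 4OHT and 1115 to 1184 CPM in DMSO libraries, and fell with the replicate block described below (adjusted p = 0.0446). The 9 epithelial markers listed summed to 18810 to 22640 CPM in 4OHT and 16250 to 20620 CPM in DMSO libraries. The 5 of 8 endothelial markers analysed here summed to 6.44 to 8.54 CPM in 4OHT and 5.31 to 8.25 CPM in DMSO libraries, and 3 of 7 markers of glia and neurons to 1.37 to 1.77 CPM in 4OHT and 1.23 to 1.92 CPM in DMSO libraries. DMSO replicate 3 stood apart from its group. Its chi-square statistic per degree of freedom was 69.5 and 63.7 against the other DMSO libraries, which differed from each other by 8.52. In DMSO replicate 3, 24 of the 35 tested genes lay below the mean log2 level of DMSO replicates 1 and 2, beside 7270 of all 14544 genes tested. In 4OHT replicate 3, 26 of the 35 lay below 4OHT replicates 1 and 2 on the same measure, beside 7320 of all genes tested. Several results that lean on DMSO replicate 3 are given with and without it, though not all are.

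Lamb2, Itgb7 and Itga1 are the genes on which the comparison turns, and the 250 bases before their RefSeq transcription starts (RefSeq, GRCm38.p6) are shown because these 3 genes passed both with the replicate block described below and by DESeq2. Capitals mark the letters CAAAGTC, the first 7 letters of CAAAGTCCA, a sequence known to bind HNF4 factors. CAAAGTC was chosen for the search after these sequences had been seen, and both strands were searched.
Lamb2 (chr9:108479612-108479861, plus strand): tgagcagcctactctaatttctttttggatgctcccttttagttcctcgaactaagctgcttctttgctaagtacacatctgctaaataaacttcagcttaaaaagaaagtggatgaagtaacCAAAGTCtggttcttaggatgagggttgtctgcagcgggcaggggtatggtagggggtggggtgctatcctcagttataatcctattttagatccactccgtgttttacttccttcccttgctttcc
Itgb7 (chr15:102231936-102232185, minus strand): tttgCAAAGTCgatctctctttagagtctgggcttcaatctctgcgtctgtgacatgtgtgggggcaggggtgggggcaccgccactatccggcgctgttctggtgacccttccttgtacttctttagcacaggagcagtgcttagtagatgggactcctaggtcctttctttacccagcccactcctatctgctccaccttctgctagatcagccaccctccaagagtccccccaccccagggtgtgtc
Itga1 (chr13:115101965-115102214, minus strand): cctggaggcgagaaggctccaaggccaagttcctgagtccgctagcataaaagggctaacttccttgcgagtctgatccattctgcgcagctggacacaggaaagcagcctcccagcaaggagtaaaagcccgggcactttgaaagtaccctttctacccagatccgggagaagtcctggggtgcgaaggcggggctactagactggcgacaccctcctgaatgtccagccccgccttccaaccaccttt
In the Lamb2 window the match lay 127 to 121 bases before the RefSeq start (positions -127 to -121), and in the Itgb7 window at -246 to -240. The GENCODE annotation used for levels starts Lamb2 at 108479736, inside this Lamb2 window. By that annotation the Lamb2 match spans the gene's start and does not lie upstream of it. The Itga1 window held no match. Promoter windows were found for 34 of the 48 genes, 39 windows in all, since some genes have several starts. CAAAGTC was in 4 of the 39 (10.3%), the others belonging to Col15a1 and Col28a1, and in 3.84% of all 32851 windows of this length. Since the letters were chosen after the Lamb2 and Itgb7 windows had been seen, these shares side by side test nothing. The full CAAAGTCCA was in 0 of the 39 and in 0.384% of all windows. The AP-1 letters TGANTCA were in 0 of the 39 (6.75% of all), TATAAA was in 1, that of Col11a2 (12.4% of all), and GGGCGG, a GC box, was in 17 (32.7% of all), among them windows of Lama5, Itga3, Itgb1 and Col18a1. A match is a run of letters and not a site shown to be bound.

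The organoids expressed mainly laminin receptors and the chains of epithelial laminins. Levels of different genes are compared here per length, as CPM per kilobase of annotated exon. Itgb1, the β chain shared by most integrins of the epithelium, was highest on this scale, at 76.6 ± 4.54 in 4OHT and 69.2 ± 5.33 CPM per kilobase in DMSO libraries (SD, n = 3 each, as for every mean below). Itga6 was at 53.2 ± 7.08 in 4OHT and 44.4 ± 7.08 CPM per kilobase in DMSO libraries. Its partner in hemidesmosomes, Itgb4, was at 58.4 ± 7.71 in 4OHT and 42.7 ± 9.13 CPM per kilobase in DMSO libraries. Itga3, the other α chain of epithelial laminin receptors, was at 46.3 ± 3.69 in 4OHT and 39.95 ± 1.95 in DMSO libraries. Within DMSO, the levels of Itga6, Itgb4 and Itga3 differed from each other by less than their spread. That order depends on the length used: per kilobase of the longest transcript, Itga6 was highest in DMSO, at 93.05, above Itgb1 at 74.0, Itgb4 at 48.2 and Itga3 at 46.9.

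Lower in DMSO than these were Lamb3 and Lamc1, then Itga2 and Lama5. Lamb3 was at 27.0 ± 4.98 in 4OHT and 19.1 ± 5.12 CPM per kilobase in DMSO libraries, and Lamc1 at 16.8 ± 1.17 in 4OHT and 13.3 ± 2.77 in DMSO libraries. Within DMSO the levels of Lamc1, Itga2 (12.3 ± 1.64) and Lama5 (11.7 ± 3.88) overlapped. Lama3, the α chain that joins Lamb3 in the laminin of hemidesmosomes, was lower, at 6.35 ± 3.47 in 4OHT and 4.20 ± 3.42 in DMSO libraries, and it was the most variable laminin gene between libraries. The 10 highest genes in DMSO were the same 10 when the longest transcript was used as the length.

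**Figure D1:**
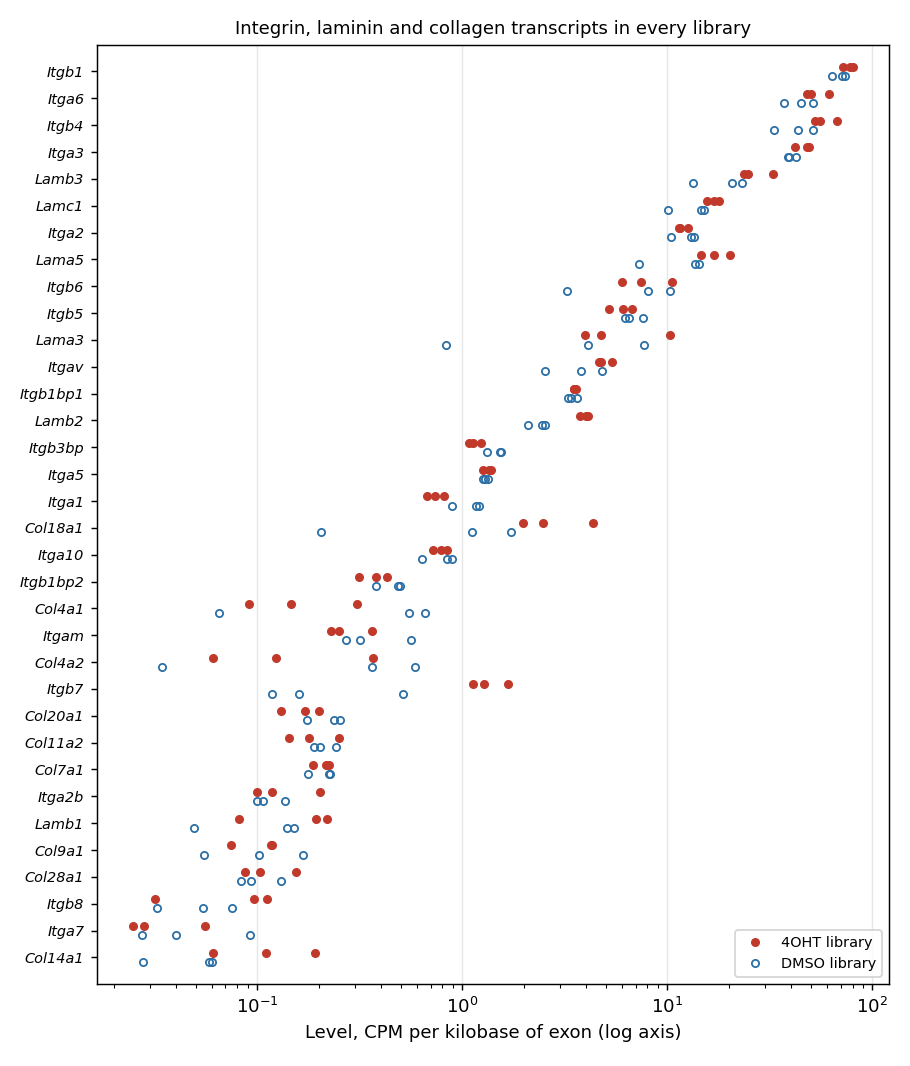
Level of 34 of the tested genes in every library, in CPM per kilobase of exon on a log axis, ordered by the DMSO mean; filled red points are 4OHT libraries and open blue points DMSO libraries. Itgb1, Itga6, Itgb4 and Itga3 are at the top of the plot, and every collagen but Col18a1 is in the lower part. The 4OHT and DMSO points of Itgb7 and of Lamb2 stand clear of each other, while those of Col18a1 and of Itga1 do not overlap but come close.

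Across all genes, edgeR's quasi-likelihood test called 132 of 14544 (0.908%) at an adjusted p under 0.05. Among the 35 tested integrin, laminin and collagen genes it called 1, Lamb2, which rose (0.701% of all genes were called and higher). The remaining 34 did not pass. Before adjustment, p fell below 0.05 for 7 that were higher (8.65% of all genes) and 2 that were lower (6.35% of all genes). The replicate numbers were taken to pair the libraries on the check given with the processing, which uses these same counts and does not settle it. With the replicate number as a block, 1017 genes passed (6.99%) and 6 of the 35 did so. Lamb2, Itgb7, Itgb4, Lamb3 and Col18a1 rose (3.99% of all genes) and Itga1 fell (3% of all genes). DESeq2 called 3 of 39, Lamb2, Itgb7 and Itga1, beside 4.94% of all genes it tested. The median log2 fold change over the 35 was 0.15, beside 0.00 over all tested genes, and 0.08 without DMSO replicate 3. Without DMSO replicate 3 alone, 3 of 39 passed, again Lamb2, Itgb7 and Itga1 (340 genes in all, 2.29%). Without replicate 3 of both groups 3 passed (601 genes in all, 4.1%): Lamb2, Itgb7 and Itga1. With the block and without replicate 3, a fit with few degrees of freedom, 18 of 37 tested passed (2678 genes in all, 18.3%), 13 higher (10.1% of all genes) and 5 lower (8.16%). In that fit the laminin receptor genes Itga3, Itga6 and Itgb4 and the laminin genes Lama3, Lama5, Lamb2, Lamb3 and Lamc1 were among the 13. The 5 that were lower were Itga1, Itga2, Itgb5, Col4a1 and Col4a2.

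**Figure D2:**
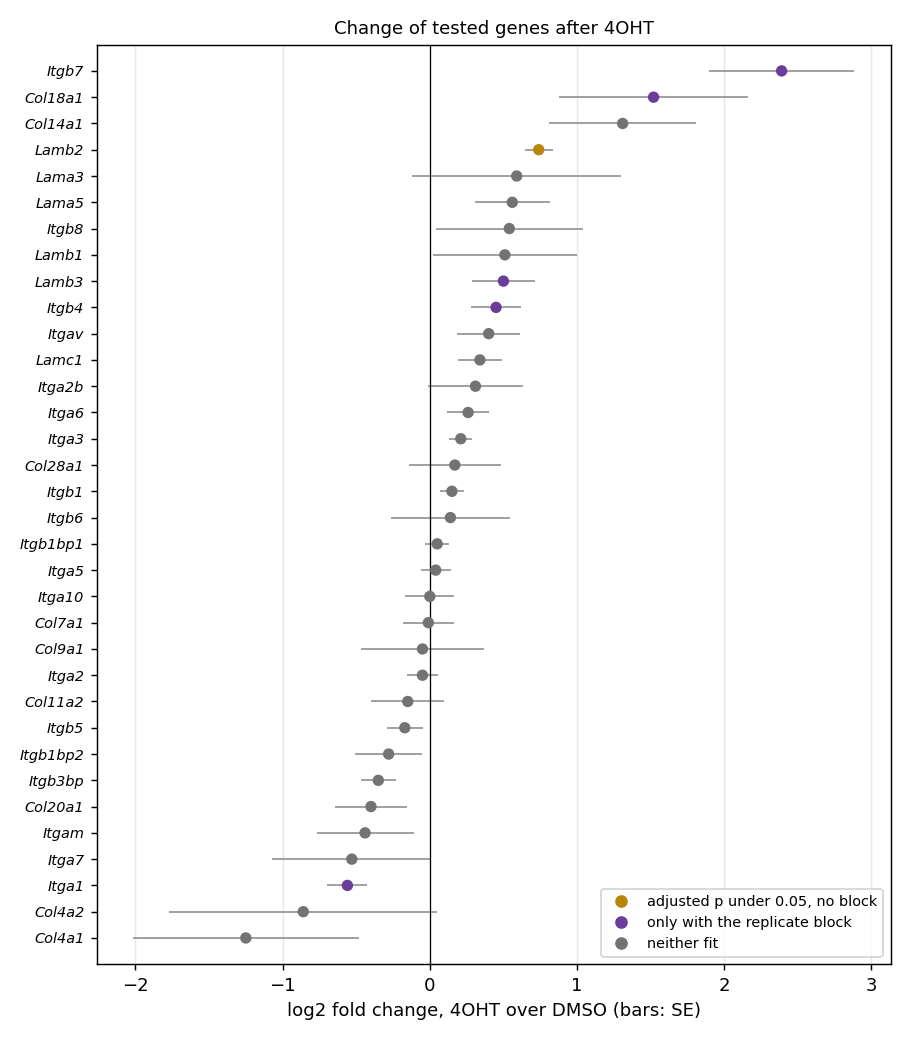
Log2 fold change, 4OHT over DMSO, with its standard error, for 34 of the tested genes. Lamb2 (0.74) passed in the fit without a block; Itgb7 (2.39), Col18a1 (1.52), Lamb3 (0.50), Itgb4 (0.45) and Itga1 (-0.56) passed with the replicate block and not in the fit of all 6 libraries without it.

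Among the integrin, laminin and collagen families, laminin chains had the most even direction: all 7 tested had a positive log2 fold change. Their median was 0.56 (0.29 without DMSO replicate 3), and 49.2% of all tested genes had a positive value. An even direction was not particular to laminins. All 7 tested hemidesmosome genes (median 0.26) and 28 of 30 genes of focal adhesions and integrin activation (median 0.12), described below, were also positive. Lamb2 encodes the β2 chain, which joins α5 and γ1 in basement membranes. It was at 24.4, 25.0 and 22.7 CPM in the 4OHT libraries, against 14.9, 15.4 and 12.7 CPM in the DMSO libraries. Every 4OHT library lay above every DMSO library, and the spread within each group was small. The means were 24.1 ± 1.20 CPM in 4OHT and 14.4 ± 1.43 CPM in DMSO libraries, 1.68-fold higher in 4OHT. The fitted log2 fold change was 0.74, with a standard error (SE) of 0.0951 and an adjusted p of 0.0284. In RNA from whole cultures, a larger share of cells that express a gene and more RNA per cell cannot be told apart. In same-numbered pairs the level was 1.64, 1.62 and 1.78 times that of DMSO. The gene (ENSMUSG00000052911) lies on chromosome 9 from 108479736 to 108490530 in GRCm38, and no other annotated exon overlaps its exons. The call was kept without DMSO replicate 3 (adjusted p = 0.0141) and lost without any other single library (adjusted p 0.0804 to 0.136), with the log2 fold change between 0.66 and 0.80 throughout. The authors' deposited table gives Lamb2 an adjusted p of 0.0029 from DESeq and 0.00016 from edgeR.

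The other β chains were less even between libraries. Lamb3, the β3 chain of hemidesmosomal laminin, was at 216, 164 and 156 CPM in the 4OHT libraries, against 153, 137 and 88.3 CPM in the DMSO libraries. The groups did not overlap, but 4OHT replicate 3 and DMSO replicate 1 were nearly level. Lamb3 rose in the fit with the block (log2 fold change 0.52, adjusted p = 0.0439) and missed the threshold without it (0.50, SE 0.216, adjusted p = 0.342). Without the block and without DMSO replicate 3, its log2 fold change was 0.29 (adjusted p = 0.382). Lamb1, the β1 chain, was at 2.18, 1.91 and 0.806 CPM in 4OHT libraries and 1.39, 1.497 and 0.487 CPM in DMSO libraries (adjusted p = 0.68). Both replicate 3 libraries were low for Lamb1, and the groups overlapped. Per length, Lamb2 made up 94.8%, 95.5% and 97.9% of Lamb1 plus Lamb2 in the 4OHT libraries, against 94.6%, 94.4% and 97.7% in the DMSO libraries, so the share of β2 overlapped between groups.

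Over all 6 libraries, Lama5, Lamc1 and Lama3 did not pass with or without the block. Lama5, the main α chain of the intestinal epithelial basement membrane, was at 192, 231 and 167 CPM in 4OHT libraries and 163, 155 and 82.5 CPM in DMSO libraries (log2 fold change 0.56, SE 0.254, adjusted p = 0.368). Every 4OHT library was above every DMSO library, though 4OHT replicate 3 and DMSO replicate 1 were close. Lamc1, the γ1 chain, was at 148, 140 and 129 CPM in 4OHT libraries and 125, 121 and 83.8 CPM in DMSO libraries (0.34, SE 0.151, adjusted p = 0.36). The groups did not overlap for Lamc1, but 4OHT replicate 3 and DMSO replicate 1 lay close together. Without DMSO replicate 3 the log2 fold changes were 0.30 for Lama5 (adjusted p = 0.312) and 0.17 for Lamc1 (adjusted p = 0.301).

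Lama3 was at 111, 42.8 and 50.9 CPM in 4OHT libraries and 82.3, 44.0 and 8.97 CPM in DMSO libraries (log2 fold change 0.59, SE 0.708, adjusted p = 0.749). The groups overlapped widely, and replicate 1 was highest in both. In same-numbered pairs the ratio of 4OHT to DMSO was 1.35, 0.974 and 5.67, and without DMSO replicate 3 the log2 fold change was 0.10. All 7 laminin genes were lower in DMSO replicate 3 than the mean log2 level of DMSO replicates 1 and 2, with a median difference of -0.94, beside 0.00 for all tested genes. In 4OHT replicate 3 all 7 were also lower than in 4OHT replicates 1 and 2, with a median difference of -0.27.

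**Figure D3:**
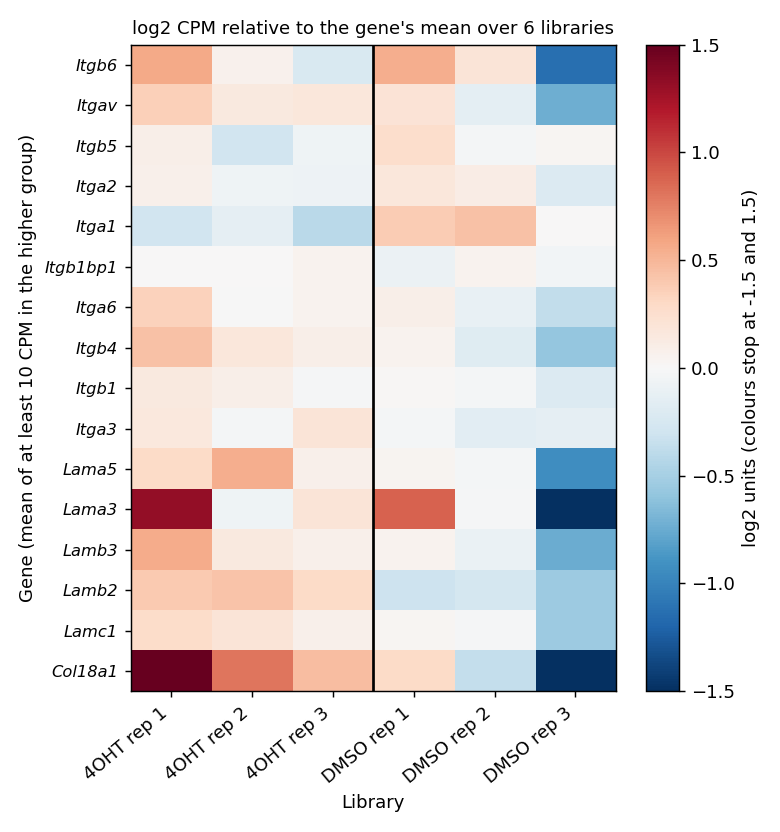
Log2 CPM of 16 genes whose group mean reached 10 CPM in at least 1 group, relative to each gene's mean over the 6 libraries; red is higher and blue lower, 4OHT libraries on the left. The DMSO replicate 3 column is the bluest, led by Lama3 and Col18a1, and Itga1 is lower in 4OHT than in DMSO while the laminin rows are mostly higher.

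Among laminin receptors, 4 of 5 tested had a positive log2 fold change (49.2% of all genes did). Itgb4 alone passed, with the block, where 3.99% of all genes rose. In the fit without the block 0 of the 5 passed by edgeR, DESeq2 or limma-voom, and 2 had an unadjusted p under 0.05 and were higher (8.65% of all genes). Itgb4, the β chain whose long cytoplasmic tail anchors hemidesmosomes to keratin filaments, was at 471, 389 and 370 CPM in the 4OHT libraries, against 360, 305 and 233 CPM in the DMSO libraries. The groups were separated, by a narrow gap between 4OHT replicate 3 and DMSO replicate 1. Itgb4 rose in the fit with the block (log2 fold change 0.47, adjusted p = 0.0257) and did not pass without it (0.45, SE 0.168, adjusted p = 0.273). Without the block and without DMSO replicate 3, its log2 fold change was 0.29 (adjusted p = 0.30). In same-numbered pairs the level in 4OHT was 1.31, 1.27 and 1.59 times that in DMSO. Itgb4 shares 537 exon bases with an antisense non-coding gene, B230344G16Rik, which had 11 to 35 counts per library.

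Itga6, its partner, was at 553, 435 and 451 CPM in 4OHT libraries and 464, 404 and 336 CPM in DMSO libraries (log2 fold change 0.26, SE 0.14, adjusted p = 0.447). Without DMSO replicate 3 the log2 fold change of Itga6 was 0.14. Itga3 was at 273, 240 and 280 CPM in 4OHT libraries and 241, 220 and 223 CPM in DMSO libraries (0.21, SE 0.0765, adjusted p = 0.263). Itgb1 was at 329, 316 and 292 CPM in 4OHT libraries and 299, 290 and 258 CPM in DMSO libraries (0.15, SE 0.0792, adjusted p = 0.448). For each of these 3 genes the groups overlapped, although all 3 same-numbered pairs were higher in 4OHT. Itga7, a laminin receptor chain of muscle, did not exceed 0.747 CPM in any library (adjusted p = 0.701).

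Ratios within a library show how the partners stood to each other. Of 13 ratios or shares computed per length, 4 did not overlap between groups, where 22.6% of all tested genes did not overlap by level. All 4 involve Itgb4, Itga1 or Itgb7, genes whose own levels did not overlap. Since an exact permutation test of 3 against 3 libraries cannot go below p = 0.10, these ratios are given as a description. The ratio of Itga6 to Itgb4 was 0.912, 0.87 and 0.948 in the 4OHT libraries, against 1.0, 1.03 and 1.12 in the DMSO libraries. The ratio of Itgb4 to Itgb1 was 0.834, 0.716 and 0.736 in 4OHT libraries and 0.70, 0.613 and 0.524 in DMSO libraries. Thus, relative to both chains, Itgb4 was higher in all 3 4OHT libraries than in the DMSO libraries. The remaining 2 were Itga1 to Itga2 and Itgb7 to Itgb1.

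Itga1, which pairs with Itgb1 as a receptor for collagen, went the other way. It was at 13.6, 15.1 and 12.5 CPM in the 4OHT libraries, against 21.6, 22.4 and 16.6 CPM in the DMSO libraries. Every 4OHT library was below every DMSO library, and DMSO replicate 3 was nearest to the 4OHT group. The means were 13.8 ± 1.33 CPM in 4OHT and 20.2 ± 3.17 CPM in DMSO libraries, a log2 fold change of -0.56 (SE 0.136, adjusted p = 0.121). Itga1 fell in the fit with the block (adjusted p = 0.022) and in the fit without DMSO replicate 3 (-0.69, adjusted p = 0.0238). Its adjusted p in the authors' deposited table is 0.053 from DESeq and 0.044 from edgeR. Itga1 (ENSMUSG00000042284, chromosome 13 from 114953096 to 115101964) shares 685 exon bases with an annotated gene on the same strand, Gm49395, so reads there could have been assigned to either.

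The other collagen receptor chains differed by less than the spread over all 6 libraries. With the block and without replicate 3 of both groups, Itga2 was also called lower (log2 fold change -0.14, edgeR adjusted p = 0.0352). In that fit, which has few degrees of freedom, 8.16% of all genes were called lower. Itga2, the major collagen-binding α chain of epithelia, was at 90.3, 82.2 and 81.6 CPM in 4OHT libraries and 96.3, 92.7 and 74.4 CPM in DMSO libraries (log2 fold change -0.05, SE 0.103, adjusted p = 0.858). Itga10, known from cartilage, was at 4.38, 4.10 and 3.75 CPM in 4OHT libraries and 4.36, 3.29 and 4.61 CPM in DMSO libraries (adjusted p = 0.995); it shares 1739 exon bases with Gm42957 on the same strand. The per-length ratio of Itga1 to Itga2 was 0.0579, 0.0707 and 0.0587 in the 4OHT libraries, against 0.086, 0.0928 and 0.0854 in the DMSO libraries, with no overlap, and DMSO replicate 3 was close to its group on this measure.

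**Figure D4:**
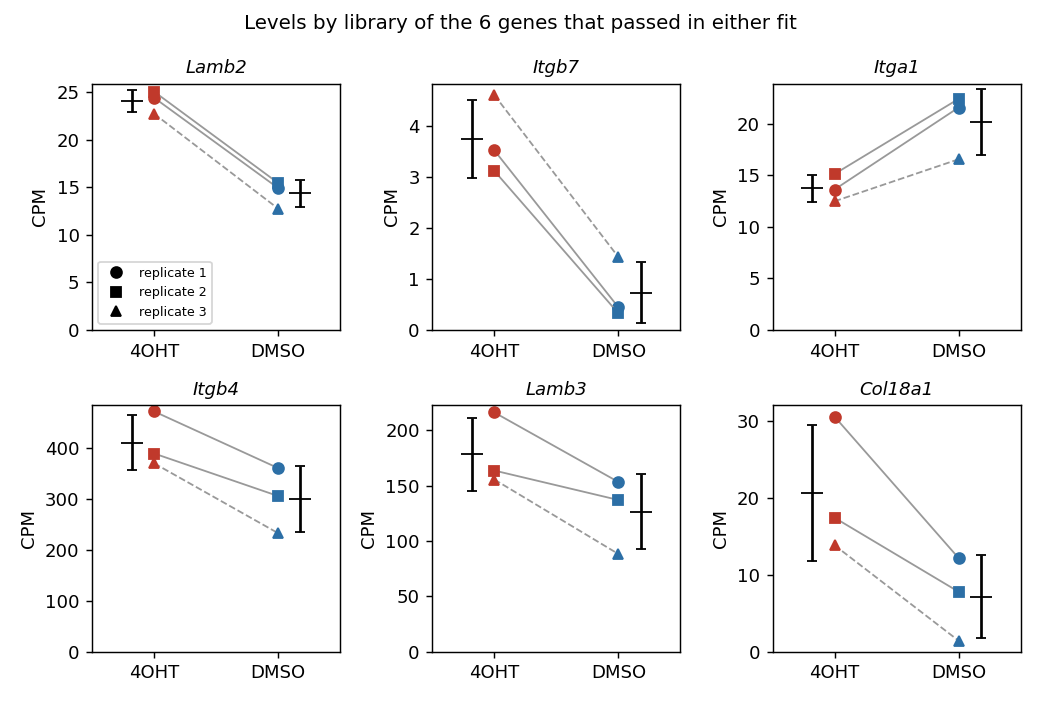
CPM of the 6 genes that passed in either fit, with same-numbered libraries joined, 4OHT on the left of each panel and DMSO on the right; black marks are the mean and SD of 3 libraries. Lamb2 differs by a like amount in every pair, Itgb7 and Col18a1 by unequal amounts, and Itga1 is the one that is lower in 4OHT.

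Itgb7 had the largest log2 fold change of the 35. It encodes the β7 chain, which pairs with α4 or αE on lymphocytes that home to the gut and its epithelium. The gene (ENSMUSG00000001281) lies on chromosome 15 from 102215995 to 102231944. Its level was 3.52, 3.12 and 4.61 CPM in the 4OHT libraries, from 123, 111 and 183 counts, against 0.445, 0.327 and 1.43 CPM in the DMSO libraries, from 16, 12 and 44 counts. The groups were well apart, and replicate 3 was highest in both. The means were 3.75 ± 0.77 CPM in 4OHT and 0.734 ± 0.606 CPM in DMSO libraries, a log2 fold change of 2.39 (SE 0.495, adjusted p = 0.0838). In same-numbered pairs the level in 4OHT was 7.92, 9.55 and 3.22 times that in DMSO. Itgb7 rose in the fit with the block (adjusted p = 0.0184), by DESeq2 (adjusted p = 3.86e-05) and without DMSO replicate 3 (3.27, adjusted p = 0.00543). The authors' deposited table gives it an adjusted p of 6.7e-07 from DESeq and 2.8e-06 from edgeR.

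Of the partners of β7, Itgae, the αE chain, had 4, 10 and 2 counts in the 4OHT libraries and 5, 3 and 5 counts in the DMSO libraries and was not tested; Itga4, the α4 chain, was not analysed here. Ptprc, the pan-leukocyte marker, was at 0.0573, 0.112 and 0.126 CPM in 4OHT libraries and 0, 0.0817 and 0.065 CPM in DMSO libraries. Of 14 immune markers listed, 6 were analysed here, and their summed level was 5.41 to 6.83 CPM in 4OHT libraries and 4.86 to 5.65 CPM in DMSO libraries. Cd68, a lysosomal protein of macrophages, made up most of that sum except in DMSO replicate 3, where Itgam, another listed marker, was higher. Cd68 was at 3.72, 4.83 and 3.98 CPM in 4OHT libraries and 2.92, 2.89 and 2.31 CPM in DMSO libraries (adjusted p = 0.15). Its groups did not overlap, and it passed by DESeq2 (adjusted p = 0.0498). The part of such cells in the Itgb7 result was not tested. Itgal, the αL chain of lymphocytes, had 5, 5 and 11 counts in 4OHT libraries and 16, 3 and 18 counts in DMSO libraries. Itgam, the αM chain of myeloid cells, was at 1.15, 1.26 and 1.81 CPM in 4OHT libraries and 1.58, 1.36 and 2.83 CPM in DMSO libraries (adjusted p = 0.593); it shares 3450 exon bases with Gm49368 on the same strand. Their groups overlapped, and neither was higher in 4OHT on average.

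Integrins that bind the RGD motif of fibronectin, vitronectin or latent TGF-β gave 0 calls of 6 tested over all 6 libraries. This held by edgeR with or without the block, by DESeq2 and by limma-voom. In the edgeR fit without the block 0 had an unadjusted p under 0.05. With the block, the unadjusted edgeR p was under 0.05 for Itgav (0.022) and Itgb5 (0.034). With the block and without replicate 3 of both groups, Itgav rose (log2 fold change 0.21, adjusted p = 0.00707) and Itgb5 fell (-0.23, adjusted p = 0.0341). In that fit, which has few degrees of freedom, 10.1% of all genes rose and 8.16% fell. Itgav, the αV chain, was at 57.5, 49.9 and 50.8 CPM in 4OHT libraries and 51.7, 40.8 and 27.1 CPM in DMSO libraries (log2 fold change 0.40, SE 0.213, adjusted p = 0.435). Without DMSO replicate 3 the log2 fold change of Itgav was 0.18. Itgb6, its epithelial partner, was at 74.6, 52.7 and 43.0 CPM in 4OHT libraries and 73.4, 57.5 and 23.0 CPM in DMSO libraries (0.14, SE 0.402, adjusted p = 0.903). Replicates 1 and 2 of the groups were close for Itgb6, and DMSO replicate 3 was low. Itgb5, another αV partner, was at 23.9, 18.5 and 21.6 CPM in 4OHT libraries and 27.2, 22.2 and 23.0 CPM in DMSO libraries (-0.17, adjusted p = 0.554). Itga5, the fibronectin receptor α chain, was nearly even over all libraries, at 6.56 ± 0.323 in 4OHT and 6.39 ± 0.174 CPM in DMSO libraries (adjusted p = 0.906). Itgb8, another partner of αV, averaged 0.884 CPM in 4OHT and 0.597 CPM in DMSO libraries, and Itga2b, the platelet α chain, 0.766 CPM in 4OHT and 0.625 CPM in DMSO libraries.

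Collagens were expressed at low levels: 13 of the 19 genes averaged under 1 CPM in both groups, and 9 were tested. Col18a1, a basement membrane collagen with a heparan sulphate proteoglycan form, was the highest. It was at 30.5, 17.4 and 13.8 CPM in the 4OHT libraries, against 12.2, 7.78 and 1.43 CPM in the DMSO libraries. The groups did not overlap, and in both replicate 1 was highest and replicate 3 lowest. The means were 20.6 ± 8.79 CPM in 4OHT and 7.13 ± 5.402 CPM in DMSO libraries (log2 fold change 1.52, SE 0.642, adjusted p = 0.333). Col18a1 rose in the fit with the block (1.72, adjusted p = 0.0486). Same-numbered ratios of 4OHT to DMSO were 2.51, 2.23 and 9.67, and without DMSO replicate 3 the log2 fold change was 1.04 (adjusted p = 0.216).

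Col4a1 and Col4a2 encode the α1 and α2 chains that form the common type IV collagen trimer, and their genes lie head to head on chromosome 8 with annotated ends that overlap by 22 bases. Col4a1 was at 2.29, 1.10 and 0.68 CPM in 4OHT libraries and 4.92, 4.11 and 0.487 CPM in DMSO libraries (log2 fold change -1.25, SE 0.766, adjusted p = 0.502). Col4a2 was at 2.43, 0.815 and 0.403 CPM in 4OHT libraries and 3.89, 2.395 and 0.227 CPM in DMSO libraries (-0.86, SE 0.909, adjusted p = 0.713). For both genes replicate 1 was highest and replicate 3 lowest in each group, and the groups overlapped. Without DMSO replicate 3 the log2 fold changes were -1.75 (adjusted p = 0.0942) for Col4a1 and -1.39 (adjusted p = 0.333) for Col4a2. With the block and without replicate 3 of both groups, both genes fell (Col4a1 -1.45, adjusted p = 2.63e-05, and Col4a2 -1.0, adjusted p = 0.00258). In that fit, which has few degrees of freedom, 8.16% of all genes fell. Col4a5, an X-linked chain, had 13 counts in 4OHT and 5 in DMSO libraries in all and was not tested.

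The remaining collagens were nearly even or too low to compare, and none passed over all 6 libraries in either edgeR fit or by DESeq2 or limma-voom; before adjustment, p fell below 0.05 for Col14a1. Col7a1, the collagen of anchoring fibrils, was at 2.14 ± 0.201 CPM in 4OHT and 2.16 ± 0.287 CPM in DMSO libraries (adjusted p = 0.988). Col14a1, a fibril-associated collagen, was at 0.773, 1.35 and 0.428 CPM in 4OHT libraries and 0.195, 0.408 and 0.422 CPM in DMSO libraries (log2 fold change 1.31, adjusted p = 0.286). With the block and without replicate 3 of both groups, its edgeR adjusted p was 0.00127. In that fit, which has few degrees of freedom, 10.1% of all genes rose. Its groups did not overlap, but 4OHT replicate 3 and DMSO replicate 3 were almost equal. Col11a2 and Col20a1 averaged 1.31 and 0.862 CPM in 4OHT libraries and 1.45 and 1.14 CPM in DMSO libraries (adjusted p = 0.832 and 0.504). Col9a1 and Col28a1 averaged 0.523 and 0.564 CPM in 4OHT libraries and 0.547 and 0.501 CPM in DMSO libraries. Col1a1, the main fibrillar collagen of fibroblasts, had 13, 11 and 11 counts in 4OHT libraries and 8, 8 and 1 counts in DMSO libraries. Of 17 fibroblast and smooth muscle markers listed, 6 were analysed here, summing to 5.99 to 8.56 CPM in 4OHT libraries and 5.36 to 9.49 CPM in DMSO libraries, most of it Vim. Pdgfra was at 0 to 0.0859 CPM in 4OHT and 0.0278 to 0.0817 CPM in DMSO libraries.

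The 3 genes caught by symbol alone differed little, and 0 passed by edgeR, DESeq2 or limma-voom, with 1 at an unadjusted p under 0.05. Itgb1bp1, which encodes ICAP1, an inhibitor that binds the β1 tail, was at 12.5 ± 0.216 CPM in 4OHT and 12.1 ± 0.61 CPM in DMSO libraries (adjusted p = 0.846). Itgb3bp, which encodes a centromere protein, was at 5.01, 5.20 and 5.74 CPM in 4OHT libraries and 6.11, 7.13 and 7.05 CPM in DMSO libraries (log2 fold change -0.35, adjusted p = 0.245), with no overlap. Itgb1bp2, known as melusin in muscle, averaged 0.672 CPM in 4OHT and 0.814 CPM in DMSO libraries. Itgb1bp1 and Itgb3bp share exon bases with antisense neighbours (Itgb1bp1 402 with Asap2 and 196 with Cpsf3, Itgb3bp 398 with Pgm1), and the strand setting of the counting is not given in the sources used here. Over all 35 genes the groups did not overlap for 11 (22.6% of all tested genes), 9 higher (12.5%) and 2 lower (10.1%) in 4OHT.

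Genes that work with integrins and laminins were read from lists written with these pathways in mind. Of 30 tested genes of focal adhesions and integrin activation, 1 rose (0.701% of all genes did), 0 fell and 29 did not pass. Their median log2 fold change was 0.12 (0.00 over all tested genes), and 28 had a positive value (49.2% of all genes). Before adjustment, p was under 0.05 for 5 that were higher and 0 that were lower (8.65% and 6.35% of all genes). Tln2, a talin that links integrin tails to actin, rose, at 82.7, 97.4 and 88.3 CPM in 4OHT libraries, against 55.4, 61.4 and 53.2 CPM in DMSO libraries (log2 fold change 0.66, SE 0.0837, adjusted p = 0.0284). With the block 2 of the 30 rose, beside 3.99% of all genes. Tns4, a tensin, was the other (159 ± 22.6 CPM in 4OHT and 98.5 ± 35.1 CPM in DMSO libraries, adjusted p = 0.0413).

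Of 15 tested basement membrane and matrix glycoproteins, 1 rose and 14 did not pass, with a median log2 fold change of -0.11 (0.701% of all genes rose). With the block 2 rose and 3 fell (3.99% and 3% of all genes). Before adjustment, p was under 0.05 for 3 that were higher and 5 that were lower (8.65% and 6.35% of all genes), and 6 passed by DESeq2 (4.94%). Bcam, a receptor for the laminin α5 chain, rose, at 32.2, 36.4 and 33.5 CPM in 4OHT libraries, against 19.4, 20.6 and 17.8 CPM in DMSO libraries (log2 fold change 0.82, SE 0.0837, adjusted p = 0.0138). The Tln2 and Bcam calls were, as for Lamb2, kept without DMSO replicate 3 and lost without any other single library (adjusted p up to 0.106 for Tln2 and 0.0764 for Bcam). With the block Npnt, nephronectin, an RGD-bearing ligand of integrins, also rose (125 ± 1.27 CPM in 4OHT and 76.7 ± 18.2 CPM in DMSO libraries, adjusted p = 0.0389). Nid1, which links laminin to type IV collagen, fell with the block (3.94 ± 1.40 CPM in 4OHT and 8.49 ± 1.66 CPM in DMSO libraries, adjusted p = 0.0191), as did Fbln1, a basement membrane glycoprotein (105 ± 7.58 CPM in 4OHT and 156 ± 28.2 CPM in DMSO libraries, adjusted p = 0.034), and Tgfbi, a secreted integrin ligand (6.4 ± 1.18 CPM in 4OHT and 9.71 ± 1.43 CPM in DMSO libraries, adjusted p = 0.0247). Npnt, Nid1, Fbln1 and Tgfbi also passed by DESeq2 (adjusted p = 0.00285, 0.00287, 0.00349 and 0.0429). Without the block and without DMSO replicate 3, Npnt and Fbln1 passed by edgeR (adjusted p = 0.00732 and 0.0349). Nid1 and Tgfbi did not pass in that fit (adjusted p = 0.1527 and 0.2295). Nid2, a relative of Nid1, was at 8.42, 10.03 and 8.84 CPM in 4OHT libraries and 11.8, 12.2 and 15.6 CPM in DMSO libraries, with no overlap. Nid2 passed by DESeq2 (adjusted p = 0.017) and not by edgeR (log2 fold change -0.54, adjusted p = 0.133).

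Of 16 tested genes for collagen maturation, 0 passed by edgeR without the block, 1 was higher at an unadjusted p under 0.05 (8.65% of all genes) and 1 passed by DESeq2 (4.94% of all genes). With the block 1 rose and 1 fell (3.99% and 3% of all genes). Pcolce, an enhancer of procollagen processing, rose with the block (5.78 ± 0.743 CPM in 4OHT and 3.37 ± 0.672 CPM in DMSO libraries, adjusted p = 0.0425). Sec23a, of the coat that carries cargo from the endoplasmic reticulum, fell with the block (93.2 ± 18.03 CPM in 4OHT and 112 ± 26.1 CPM in DMSO libraries, adjusted p = 0.0319).

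Of 8 tested metalloproteinases and their inhibitors, 0 passed by edgeR in all 6 libraries without the block. Before adjustment, p was under 0.05 for 5, all higher in 4OHT (8.65% of all genes), and 2 passed by DESeq2 (4.94% of all genes). Timp2, an inhibitor of metalloproteinases, rose with the block (29.4 ± 3.73 CPM in 4OHT and 12.7 ± 3.64 CPM in DMSO libraries, adjusted p = 0.00922), and without the block once DMSO replicate 3 was left out (log2 fold change 0.98, adjusted p = 0.014). Mmp28, a secreted metalloproteinase of epithelia, also rose with the block (29.2 ± 4.49 CPM in 4OHT and 17.2 ± 4.11 CPM in DMSO libraries, adjusted p = 0.0402). Without the block and without DMSO replicate 3 it did not pass by edgeR (log2 fold change 0.60, adjusted p = 0.1235). These were the 2 of the 8 that rose with the block, beside 3.99% of all genes. Of 7 tested hemidesmosome genes, which include Itga6 and Itgb4, Itgb4 was the one that passed with the block (6.99% of all genes did). Plec, plectin, which ties Itgb4 to keratin, was at 457 ± 57.2 CPM in 4OHT and 401 ± 65.3 CPM in DMSO libraries (adjusted p = 0.577). Krt5 and Krt14, keratins of stratified epithelia, had the smallest p-values outside the integrins, at 1.34 and 1.91 CPM in 4OHT libraries and 0.884 and 0.893 CPM in DMSO libraries (adjusted p = 0.446 and 0.448). Ddr1, a collagen receptor kinase, was the 1 tested gene of the non-integrin collagen receptors (145 ± 19.8 CPM in 4OHT and 131 ± 23.3 CPM in DMSO libraries, adjusted p = 0.702).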

How the data were processed

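Poly(A)-selected RNA of 6 libraries was sequenced with a kit that keeps strand, per the labels' protocols. STAR 2.4.0f1, bcl2fastq 1.8.4 and build GRCm38 are named in the submitters' processing notes; the counting program, its annotation and its strand setting are not given in the sources used here. The deposited file holds the authors' raw read counts per gene for 18448 genes, all with at least 10 counts in total. It also holds the authors' log2 fold changes, and their adjusted p-values from DESeq and edgeR, used here only where named; 6 columns of normalised values in it were not used.

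From the counts, genes were filtered with filterByExpr (14544 kept), scaled by TMM and tested 4OHT against DMSO with the quasi-likelihood F test of edgeR 4.0.16 in R 4.3.3, with Benjamini-Hochberg adjustment over all genes tested and a threshold of 0.05. The SE is the absolute log2 fold change over the square root of F. CPM are counts over TMM-scaled totals, so intervals on low counts are wide; levels per kilobase use the union of GENCODE vM21 exons. Same-numbered libraries deviated together (correlations of 0.30, 0.33 and 0.43 across 14544 genes, against -0.37 to 0.07 for different numbers). Each group's mean was subtracted first, so high same-number correlations push the others down, and that contrast is not separate support. The pairing by number rests on these same counts, with no stated source. The main fit did not pair the libraries, and a fit with the replicate block is given where it changes a call. Alternatives were other scalings, DESeq2 1.42.0, limma-voom (limma 3.58.1), other filters and fewer libraries. The code was tested on simulated counts.

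The genes and lists were chosen with earlier results of these data known. Values in every library were to be given for genes with a group mean of at least 10 CPM, genes that passed in either fit and partner chains; from each companion list, genes that passed or up to 2 with the smallest p. Values given for other low genes and for markers of other cell types were chosen after they had been seen. The individual values of 1 gene are not reported here.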

Additional observations from a re-analysis of the deposited data

How the results depend on the processing

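Over all genes, 132 were called, against 130 with RLE size factors, 138 with library totals alone, 123 with limma-voom and 137 with no filter. DESeq2 called 735 genes, a filter at 10 CPM 60, and leaving out single libraries 4 to 340. With the replicate block 1017 were called, and without replicate 3 of both groups 601 without the block and 2678 with it. Among the integrin, laminin and collagen genes, 1 was called, and 1 also under RLE, library totals, limma-voom, no filter and the 10 CPM filter. DESeq2 called 3, the replicate block 6, leaving out single libraries 0 to 3, and leaving out replicate 3 of both groups 3 without the block and 18 with it. The value of 3 among single omissions came without DMSO replicate 3, and the cause of these shifts was not tested.

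The log2 fold change of Itga2 (-0.05) ran from -0.16 to 0.02 when single libraries were left out, changing sign without DMSO replicate 1. That of Itgb6 (0.14) ran from -0.21 to 0.49, negative without DMSO replicate 3 and without 4OHT replicate 1, and was -0.05 without replicate 3 of both groups, with or without the block. Of the single-gene comparisons with an alternative, 405 kept direction and side of the threshold, 59 gained a call, 20 lost one (Bcam, Hnf4a, Lamb2 and Tln2, 5 each) and 5 changed sign. The 10 highest genes per length were the same 10 with the longest transcript. The highest gene changed with that length, from Itgb1 to Itga6.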
